A study of Mus musculus with 32 samples.

Results

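The genes described here are 50 genes of the lysosome, taken by name from a list of its acid hydrolases, its proton pump, its membrane proteins and 2 further genes, Grn and Tfeb. All 50 were found among the 53465 genes of the count table. By role they comprise 11 subunits and accessory proteins of the proton pump, 10 proteases, 12 glycosidases and sulfatases of glycans, 8 lipid enzymes and their activators, 7 membrane proteins and the 2 others. The rule names the genes and uses no measured value, but the genes were chosen with earlier results of these data known.

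RNA was sequenced from pools of 500 spleen cells sorted from C57BL/6 mice aged 12 weeks, on day 14 after an intraperitoneal injection of NP-CGG in alum, a hapten on a carrier protein that raises a germinal centre response. Naive B cells, dark zone and light zone B cells of the germinal centre and plasma cells were taken from WT mice and from mice with aPIK3CD, activated PIK3CD signalling. The genotype field names AID-cre in both, a Cre recombinase driven by a gene that B cells switch on when activated, so the control mice carry it too. Each of the 8 groups held 4 libraries. The libraries titled replicate 1 of aPIK3CD, 1 per population, carry WT in the genotype field, while their column names, like their titles, name PIK3CD. They were grouped by title. Calls between genotypes in plasma cells are also given with these libraries counted as WT. Medians, sums, overlaps and counts other than calls are given by title only. Column names give same-numbered libraries of a genotype a common stem across populations, which may mark a shared mouse. No label states it, and libraries were not paired, so p-values measure the spread between these libraries.

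Total counts per library were 1965329 to 2820830 in naive B cells, 902088 to 1835558 in light zone cells, 473149 to 704361 in WT plasma cells and 652722 to 788999 in aPIK3CD plasma cells. Dark zone libraries held 1154809 to 1941224 counts, except WT replicate 3 with 25797, in which 1 count is worth 34.0 CPM, the count scaled to library size. Summed over 6 plasma cell markers, the plasma cell libraries reached 10654 to 14374 CPM and the naive libraries 404 to 592 CPM, and 7 germinal centre markers summed to 2224 to 3638 CPM in the zones and 45.0 to 105 CPM in naive cells. Levels below are CPM on a scale common to all libraries. Exons of 18 members overlap those of another annotated gene, by over 10 percent of the exonic bases in 8 (Ctsd, Arsb, Ctsl, Arsa, Ctsb, Hexa, Atp6v0b and Ctsa), and no source used here states strand-aware counting, so reads of such pairs cannot be told apart. In bulk samples, fewer cells of a type and less RNA per cell cannot be told apart.

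Lysosomes break down proteins, glycans and lipids with hydrolases that work in acid. The acid is supplied by the vacuolar ATPase, a rotary pump whose cytosolic V1 sector hydrolyses ATP and whose membrane V0 sector carries protons. Many of these genes share an E-box in the promoter that is bound by TFEB and its relative TFE3, and TFEB is held in the cytosol when mTORC1, which lies downstream of PI3K, phosphorylates it at the lysosome.

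Promoter stretches of 5 members that hold such an E-box are shown first. Promoter windows of 300 bases (250 before and 50 after the annotated start, RefSeq, GRCm38.p6) were on hand for 42 of the 50 genes, in 51 windows. The heptamer TCACGTG, searched on both strands, was found in 27.5% of the members' windows, in 3.77% of all 32851 windows and in 6.40% of the 9575 windows of genes tested in the plasma cell comparison with naive cells. The hexamer CACGTG, which the heptamer contains, was found in 29.4%, 7.15% and 10.6% of them. Each line below gives 120 bases, 5′ to 3′ on the gene's strand, with TCACGTG or its reverse complement in capitals; where the 2 strands overlap, the 8 letters TCACGTGA are capitals.
Glb1, chr9:114400958-114401077, plus strand: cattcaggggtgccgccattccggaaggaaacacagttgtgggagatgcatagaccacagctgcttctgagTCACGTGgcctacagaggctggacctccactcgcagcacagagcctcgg
Lgmn, chr12:102439093-102439212, minus strand: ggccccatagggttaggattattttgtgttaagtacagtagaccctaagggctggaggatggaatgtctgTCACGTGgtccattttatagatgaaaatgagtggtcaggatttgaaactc
Atp6v0b, chr4:117887330-117887449, minus strand: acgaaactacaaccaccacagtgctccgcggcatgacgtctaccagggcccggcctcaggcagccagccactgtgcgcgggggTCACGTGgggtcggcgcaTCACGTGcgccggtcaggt
Lamp1, chr8:13159041-13159160, plus strand: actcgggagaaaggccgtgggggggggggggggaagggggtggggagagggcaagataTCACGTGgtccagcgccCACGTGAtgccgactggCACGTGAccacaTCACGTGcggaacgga
Mcoln1, chr8:3500399-3500518, plus strand: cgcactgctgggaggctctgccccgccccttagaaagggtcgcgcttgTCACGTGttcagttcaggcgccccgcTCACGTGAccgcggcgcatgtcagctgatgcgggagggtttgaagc

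Glb1 and Lgmn are shown because they are the 2 members with the heptamer that rose in aPIK3CD plasma cells, and Atp6v0b, Lamp1 and Mcoln1 because they hold it at more than 1 place and stand for the pump and the membrane. Ctsb and Atp6v1h, which also rose there, had no window on hand and were not searched. By role, the heptamer stood in the windows of 3 of 8 pump genes (Atp6v0b, Atp6v0d1 and Atp6v1a), 3 of 8 proteases (Ctsa, Ctsd and Lgmn) and 4 of 11 glycosidases (Gaa, Gla, Glb1 and Naglu). It also stood in those of 1 of 7 lipid enzymes (Arsa) and 3 of 6 membrane proteins (Cln3, Lamp1 and Mcoln1), and in those of 0 of 2 others. Lamp1 held it at 4 places, with first bases at -62, -45, -28 and -16 from the start. In Glb1 and Lgmn it began at -49 and -50. The Lgmn start used lies inside the gene as GENCODE M21 annotates it, from 102394084 to 102439813 on the minus strand. A match describes these letters and is no measure of binding.

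**Figure D1:**
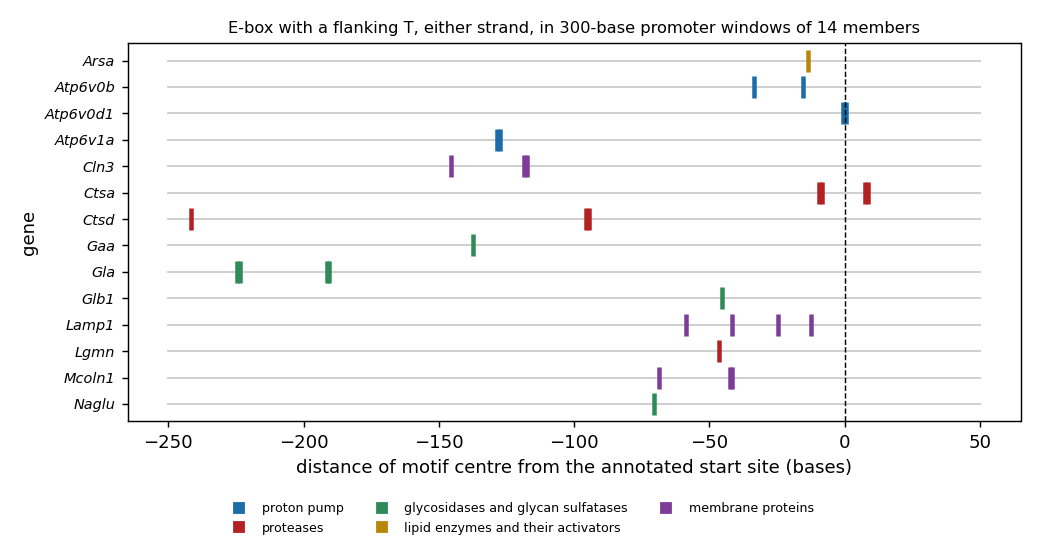
Distance in bases from the annotated start site (x axis) of the centre of each E-box with a flanking T, on either strand, in the 300-base windows of 14 lysosomal genes (y axis). The 4 places in Lamp1 lie within 62 bases before the start.

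Across the 4 populations of WT mice, mean CPM was highest in plasma cells for 31 of the 50 genes, in naive B cells for 16, in dark zone cells for 2 (Atp6v0d1 and Atp6v1a) and in light zone cells for 1 (Tfeb). The rank of Atp6v0d1 rested on the shallow dark zone replicate 3, at 204 CPM. The other dark zone libraries, at 131, 126 and 115 CPM, lay below its plasma cell mean of 138 CPM. Dark zone cells had the lowest mean for 36 genes, a count that includes the shallow replicate 3. For Ctsz, 1 of these, that rank rested on replicate 3 at 306 CPM. Its other dark zone libraries, at 581, 503 and 537 CPM, lay above its naive mean of 498 CPM. How many of the ranks rest on replicate 3 was not counted. In aPIK3CD mice the highest mean stood in plasma cells for 39 genes and in naive cells for 8, and the lowest in dark zone cells for 30. Summed over the 50 genes, the level in WT libraries was 8455 ± 326 CPM (SD, n = 4) in naive cells, 4556 ± 914 in dark zone, 5583 ± 416 in light zone and 14627 ± 777 in plasma cells. The dark zone sum was 3232 CPM in the shallow replicate 3 and 5151, 4660 and 5182 CPM in the others. The plasma cell libraries did not overlap the naive ones, which lay between 8158 and 8916 CPM.

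**Figure D2:**
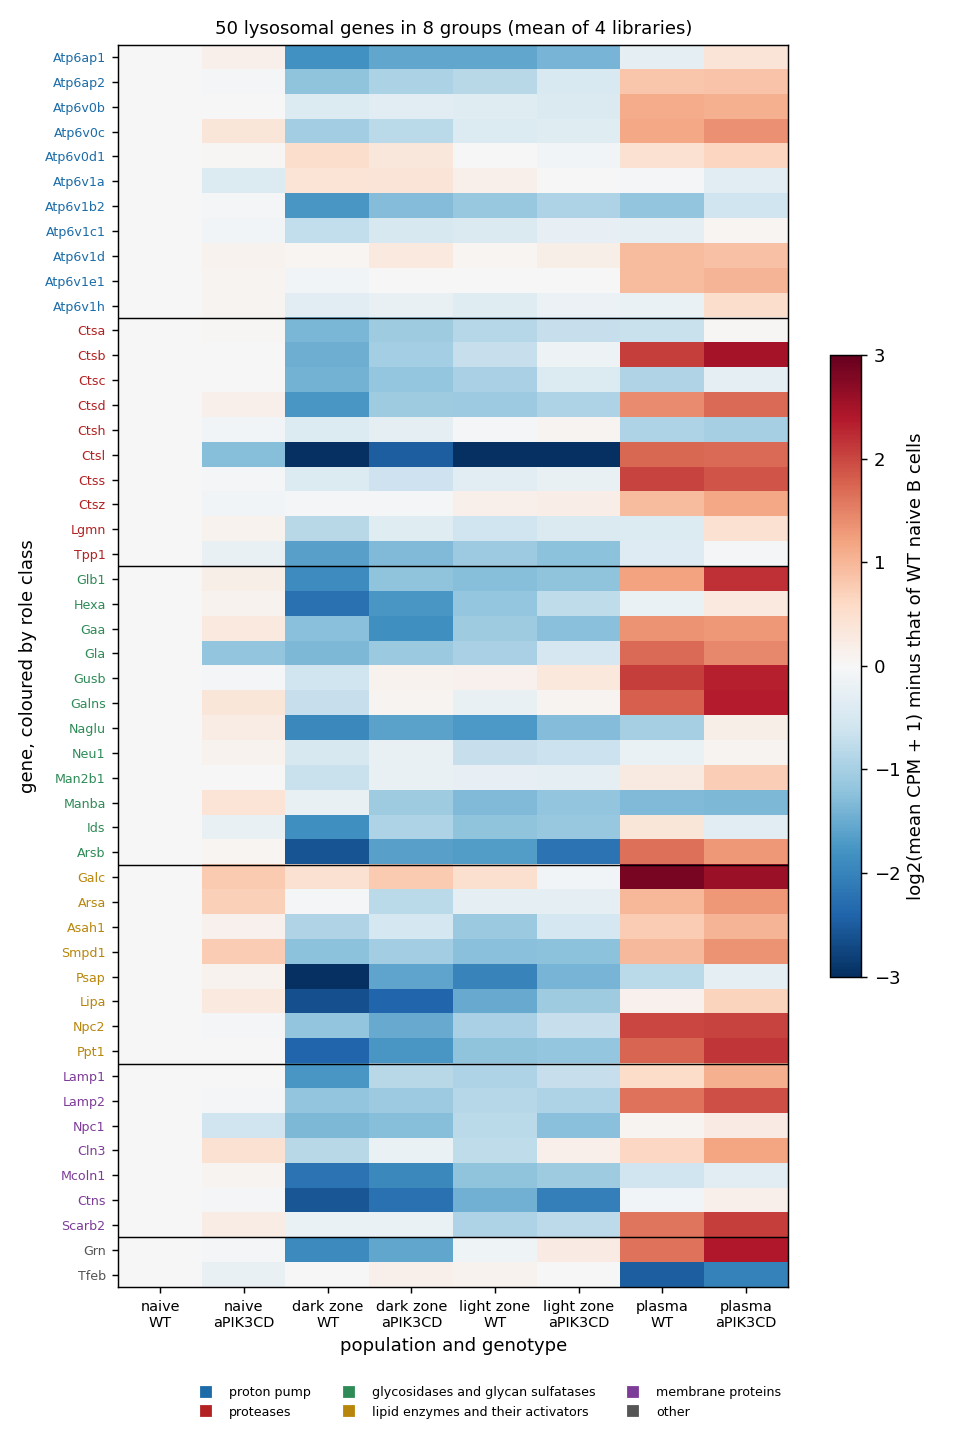
Log2 of mean CPM + 1 minus that of WT naive B cells for 50 genes (rows, coloured by role) in 8 groups of population and genotype (columns, 4 libraries each), with the colour scale ending at 3 in either direction. Most rows are below naive in both germinal centre zones, and 31 of 50 have their highest WT mean in plasma cells.

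In WT plasma cells, 23 of the 49 members tested rose against naive B cells and 7 fell (edgeR quasi-likelihood test, adjusted p below 0.05), where 25.4% of all genes tested rose and 24.2% fell. The members' median log2 fold change was 0.68 and that of all genes tested -0.09. On library totals without TMM scaling, which moves the median of all genes to -0.55, 18 members rose and 16 fell. Galc, with too few counts, was not tested.

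Of the pump genes, 5 of 11 rose (Atp6ap2, Atp6v0b, Atp6v0c, Atp6v1d and Atp6v1e1) and 1 fell, with a median log2 fold change of 0.50. Atp6v0b, a proteolipid of the proton-carrying ring and the pump gene with the most counts per exonic kilobase, measured 286, 201, 192 and 232 CPM in naive replicates 1 to 4 and 519, 496, 472 and 481 CPM in plasma cells. The groups did not overlap, and the log2 fold change was 1.16 (SE 0.15, edgeR adjusted p = 1.72e-05). Atp6v0c, the main ring proteolipid, measured 20.8, 18.1, 15.3 and 10.4 CPM in naive cells and 34.0, 39.0, 47.7 and 27.6 CPM in plasma cells, from 12 to 28 counts in the latter. It too did not overlap (log2 fold change 1.24, SE 0.38, edgeR adjusted p = 0.0141), but the call was lost on library totals, without the filter on low counts and in 1 of 8 fits that left out a library. This gene has processed pseudogenes, among which the counting could split its reads. The gene that fell was Atp6v1b2, a catalytic-sector B subunit, from a mean of 324 to 141 CPM (-1.14, SE 0.17, edgeR adjusted p = 5.13e-05).

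Among the proteases 5 of 10 rose (Ctsb, Ctsd, Ctsl, Ctss and Ctsz) and 3 fell (Ctsa, Ctsc and Ctsh). Ctss, the cysteine protease that trims the invariant chain of MHC class II, measured 664, 419, 541 and 591 CPM in naive cells and 2282, 2498, 1826 and 2486 CPM in plasma cells. Every plasma cell library lay above every naive one (log2 fold change 2.09, SE 0.16, edgeR adjusted p = 7.23e-08). Counts of genes with at least 300 exonic bases did not pass 2.07 per exonic base, and Ctss, which reached 1.16, came closest among the members. Its counts were 1322 to 1519 in the deeper naive libraries and 961 to 1081 in plasma cells. Whether a bound on counts moves its fold was not tested.
Ctsb, a cysteine protease of bulk protein turnover, measured 381, 285, 342 and 348 CPM in naive cells and 1457, 1284, 1407 and 1596 CPM in plasma cells, again with no overlap (2.13, SE 0.13, edgeR adjusted p = 8.98e-09). Ctsl, a relative with a similar role, rose by 1.79 on the log2 scale (SE 0.23). Ctsc, which activates granule serine proteases, went the other way, from a mean of 694 to 369.7 CPM (-0.86, SE 0.15, edgeR adjusted p = 0.000218), as did Ctsh, an aminopeptidase (-0.89, SE 0.17), and Ctsa, the protective protein of beta-galactosidase and neuraminidase (-0.62, SE 0.19).

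The glycan-degrading class had 5 genes that rose (Glb1, Gaa, Gla, Gusb and Galns), 1 that fell (Manba) and a median of 0.83 over 12 tested. Gusb, beta-glucuronidase, measured 106, 126, 113 and 153 CPM in naive cells and 639, 470.4, 576 and 428 CPM in plasma cells. Galns, which removes sulfate from keratan and chondroitin sulfate, measured 27.0, 62.1, 40.2 and 32.5 CPM against 163, 133, 133 and 138 CPM. Neither overlapped (log2 fold changes 2.13, SE 0.17, edgeR adjusted p = 1.09e-07, and 1.83, SE 0.26, edgeR adjusted p = 3.42e-05). Hexa, a subunit of beta-hexosaminidase and the member of this class with the most counts per kilobase, gave 189, 189, 204 and 157 CPM in naive and 120.1, 151, 170.5 and 205 CPM in plasma cells. Those groups overlapped, and the difference did not pass the test (-0.15, SE 0.19, edgeR adjusted p = 0.551).

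Of the lipid enzymes and activators 4 of 7 tested rose (Asah1, Smpd1, Npc2 and Ppt1), 1 fell (Psap), and the median was 1.02. Npc2, which hands cholesterol to Npc1, measured 175, 123, 161 and 183 CPM in naive cells and 625, 678, 644 and 630.1 CPM in plasma cells. Ppt1, which removes palmitate from proteins, measured 298, 283, 288 and 275 CPM in naive cells and 1054, 824, 970.1 and 1023 CPM in plasma cells. Both separated the populations completely (2.05, SE 0.15, edgeR adjusted p = 4.00e-08 for Npc2, and 1.80, SE 0.13, edgeR adjusted p = 3.55e-08 for Ppt1). Psap, the precursor of the saposins that present sphingolipids to their hydrolases, fell from a mean of 115 to 65.0 CPM with overlapping groups (-0.79, SE 0.27, edgeR adjusted p = 0.0261).

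Of the membrane proteins 3 of 7 rose (Lamp1, Lamp2 and Scarb2) and 0 fell. Lamp2, a glycoprotein of the limiting membrane, measured 196, 188, 261 and 205 CPM in naive cells and 723, 541, 684 and 708 CPM in plasma cells (1.69, SE 0.15, edgeR adjusted p = 4.95e-07). Scarb2, a glycoprotein of the same membrane, measured 43.0, 70.6, 75.8 and 78.7 CPM against 202, 179, 244 and 205 CPM (1.67, SE 0.21, edgeR adjusted p = 1.15e-05). Lamp1, the partner of Lamp2, was closer between populations, at 288, 259, 308 and 303 CPM against 385, 333, 392 and 584 CPM (0.60, SE 0.18, edgeR adjusted p = 0.0107), and its call was lost on library totals. In these 3 genes every plasma cell library lay above every naive one. Grn, whose product progranulin is cut into granulins in the lysosome, measured 109, 225, 137 and 139.7 CPM in naive cells and 460.0, 494, 513 and 435 CPM in plasma cells, without overlap (1.67, SE 0.21, edgeR adjusted p = 9.36e-06).

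Per exonic kilobase, Ctss stood highest of these genes in WT plasma cells at a mean of 1674 CPM per kb, followed by Ctsz at 668, Ppt1 at 263, Atp6v0b at 239.9 and Ctsb at 237 CPM per kb. In naive cells Ctss stood at 408 CPM per kb.

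Tfeb, the transcription factor, was among the 7 members that fell. It measured 58.9, 138, 45.6 and 63.8 CPM in WT naive cells and 13.6, 13.0, 13.6 and 11.5 CPM in WT plasma cells, from 5 to 8 counts each. All plasma cell libraries were below all naive ones (log2 fold change -2.52, SE 0.42, edgeR adjusted p = 0.00017). Germinal centre cells had it near naive, at 77.0 ± 17.0 CPM in dark zone and 82.5 ± 24.7 CPM in light zone (SD, n = 4 each), and neither difference passed the test. Its relative Tfe3 did not pass the test in plasma cells against naive cells (19.2 ± 11.2 against 27.7 ± 14.5 CPM, log2 fold change -0.47, SE 0.51, edgeR adjusted p = 0.472).

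**Figure D3:**
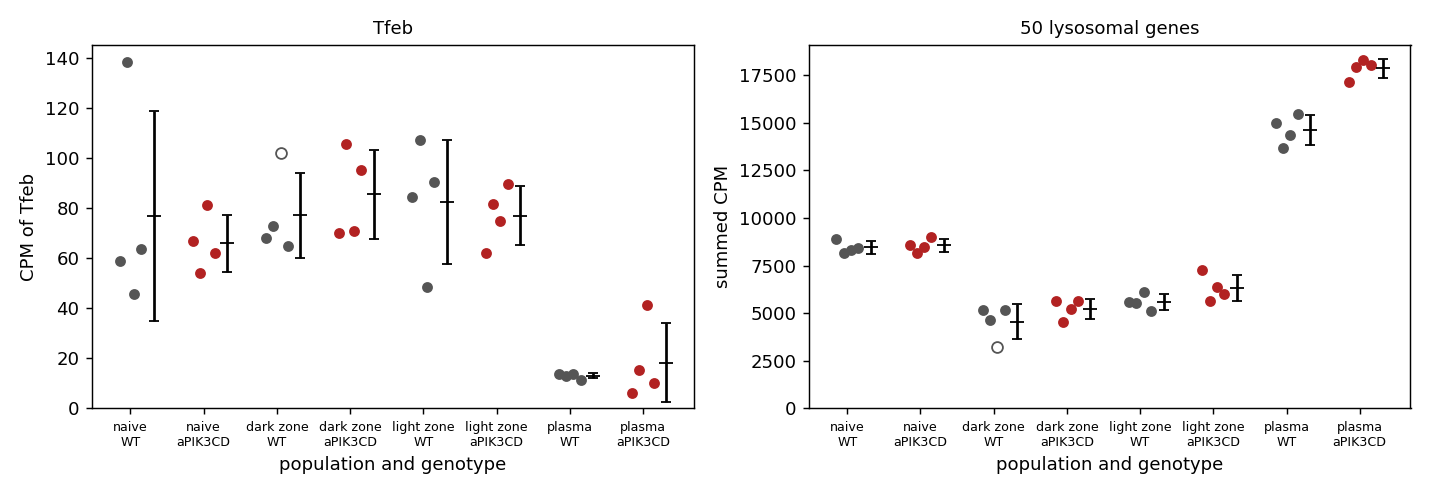
CPM of Tfeb and the summed CPM of the 50 genes (y axes) in each library, by population and genotype (x axis), with the shallow dark zone WT replicate 3 as a hollow point. WT plasma cells lie between 11.5 and 13.6 CPM for Tfeb, below all naive libraries, and have a mean sum of 14627 CPM against 8455 in naive cells.

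In aPIK3CD mice, which are separate animals, 29 of 49 members rose in plasma cells against naive cells and 5 fell, where 26.6% of all genes tested rose and 26.2% fell. On library totals without TMM scaling, which moves the median of all genes to -0.52, 20 rose and 9 fell. The 23 genes that rose in WT were all among the 29, and 5 genes fell in both (5 of 7 in WT and 5 of 5 in aPIK3CD). The 6 called here and not in WT were Atp6ap1, Atp6v0d1, Atp6v1h, Cln3, Man2b1 and Npc1. Tfeb again fell, by 1.87 on the log2 scale (SE 0.44, edgeR adjusted p = 0.00356).

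Transcripts of other cells moved with this comparison. Over 16 markers of monocytes, macrophages and neutrophils, cells rich in lysosomal enzymes, the summed level was 14.5 to 54.5 CPM in WT naive libraries, 49.4 to 410.9 CPM in WT plasma cells and 26.2 to 588.5 CPM in aPIK3CD plasma cells. In both plasma cell groups 6 of the 16 stood at 0 (Fcgr1, Vsig4, S100a8, S100a9, Mpo and Elane), and Lyz2 ranged from 0 to 363 CPM in WT. The plasma cell libraries with the lowest sums were WT replicate 2 at 49.4 and aPIK3CD replicate 3 at 26.2 CPM, within the naive range. Ctss there measured 2498 and 1961 CPM, Ctsb 1284 and 1926 CPM and Grn 494 and 817 CPM. These genes are among those that rose, and the part of other cells in the result was not tested. Over 10 T and NK cell markers the sum was 253.1 to 421.6 CPM in WT naive and 197.8 to 579.7 CPM in WT plasma cells.

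**Figure D4:**
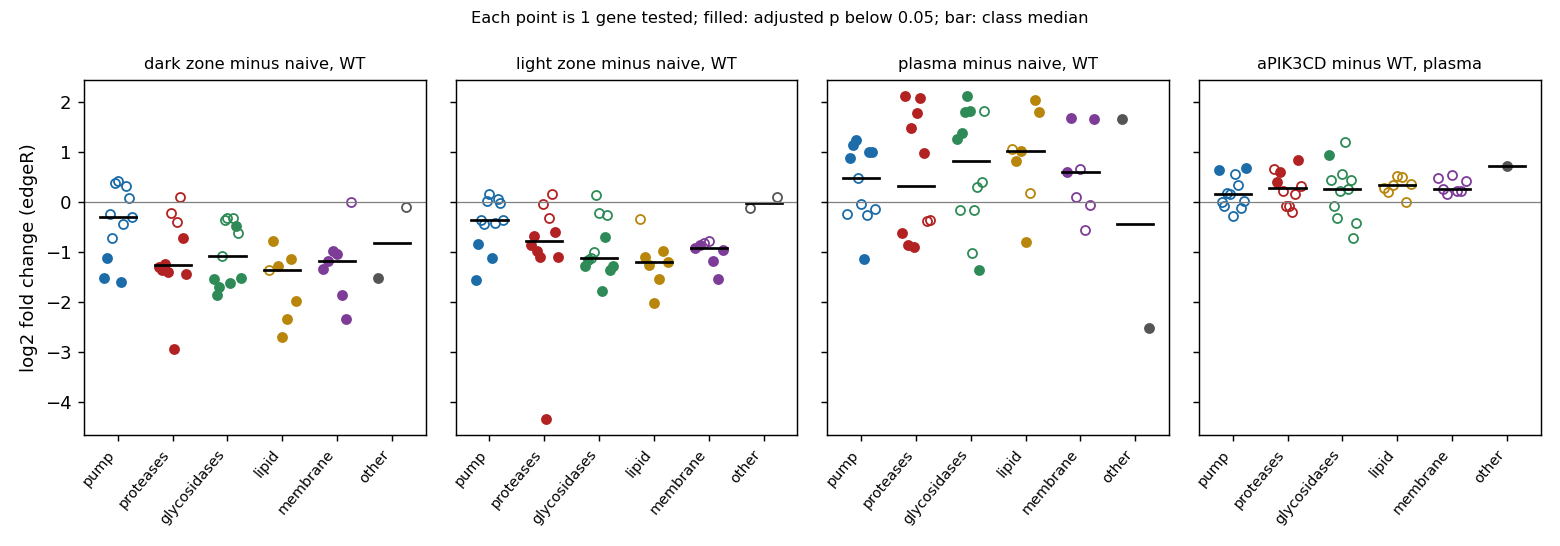
Log2 fold change (y axis) of each member tested, by role class (x axis), for WT dark zone, light zone and plasma cells, each over naive cells, and for aPIK3CD against WT in plasma cells; filled points passed the test at an adjusted p below 0.05 and bars mark class medians. The members' medians are -1.12, -0.85, 0.68 and 0.27 in the 4 panels.

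Germinal centre cells had less of these transcripts than naive cells. In the dark zone of WT mice, 29 of 48 members tested fell and 0 rose, where 21.6% of all genes tested fell and 19.8% rose, with a members' median of -1.12 against -0.06 for all genes. Without the shallow replicate 3, 30 fell and the median was -1.16. With DESeq2 size factors, which move the median of all genes to -0.23, 33 fell, and on library totals, with a median of -0.16, 31 fell. In the WT light zone 27 of 48 fell and 0 rose, where 20.2% of all genes tested fell and 19.8% rose, with a median of -0.85 against -0.04. Over 10 T and NK cell markers the sum was 253.1 to 421.6 CPM in WT naive libraries. It was 5.83 to 170.1 CPM in WT dark zone, highest in the shallow replicate 3, and 43.7 to 385.6 CPM in WT light zone. Monocyte, macrophage and neutrophil markers summed to 14.5 to 54.5 CPM in naive, 0 to 41.2 CPM in dark zone and 90.5 to 327.6 CPM in light zone. The part of other cells in the falls was not tested.

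Falls in the dark zone reached every class. They took in 3 of 11 pump genes (Atp6ap1, Atp6ap2 and Atp6v1b2), 7 of 10 proteases (Ctsa, Ctsb, Ctsc, Ctsd, Ctsl, Lgmn and Tpp1) and 6 of 11 glycosidases (Glb1, Hexa, Gaa, Naglu, Man2b1 and Ids). A further 6 of 7 lipid enzymes (Asah1, Smpd1, Psap, Lipa, Npc2 and Ppt1), 6 of 7 membrane proteins (all but Scarb2) and Grn fell. The light zone shared the same 3 pump genes and 7 proteases, and 6 of 11 glycosidases, 6 of 7 lipid enzymes and 5 of 7 membrane proteins fell there. Of the 50 genes, V1 subunits of the pump other than Atp6v1b2 did not pass the test in either zone; Atp6v1a, the catalytic subunit, had a mean of 124 CPM in dark zone and 92.6 CPM in naive cells (0.42, SE 0.19, edgeR adjusted p = 0.0888).

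Ctsl and Psap had the lowest fold changes of the members. Ctsl measured 34.8, 38.0, 39.5 and 46.6 CPM in WT naive cells, 0, 6.63, 0 and 8.43 CPM in dark zone and 1.25, 1.27, 3.53 and 1.04 CPM in light zone, the last from 1 to 7 counts. Both zones lay below all naive libraries (dark zone -2.94, SE 0.62, edgeR adjusted p = 0.00125; light zone -4.34, SE 0.47, edgeR adjusted p = 9.60e-06). Psap measured 74.9, 135, 139 and 110.0 CPM in naive cells, 13.5, 13.3, 0 and 25.3 CPM in dark zone and 18.7, 31.6, 40.3 and 20.8 CPM in light zone, again without overlap (-2.70, SE 0.33, edgeR adjusted p = 7.29e-06, and -2.01, SE 0.29, edgeR adjusted p = 0.000105). Atp6ap1, an accessory subunit needed to assemble the pump, measured 437, 389.6, 409.8 and 362 CPM in naive cells, 149, 127, 34.0 and 143 CPM in dark zone and 137, 145, 158 and 98.8 CPM in light zone. Its zones did not reach the naive range (-1.51, SE 0.17, edgeR adjusted p = 3.85e-06, and -1.55, SE 0.15, edgeR adjusted p = 4.05e-06).

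In aPIK3CD mice 29 of 49 members fell in the dark zone and Atp6v1a rose (0.82 on the log2 scale), where 21.4% of all genes tested fell and 22.2% rose. In the light zone 28 of 48 fell and Ctsz, a carboxypeptidase, rose (0.29), where 20.8% fell and 21.8% rose. Genes that fell in both genotypes numbered 24 of 29 and 29 in the dark zone, and 25 of 27 in WT and 28 in aPIK3CD in the light zone.

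Between the zones, 2 of 46 members tested were higher in the light zone of WT mice, where 1.3% of all genes tested rose and 1.26% fell. They were Ctsb, at 121, 133, 102 and 135 CPM in dark zone and 197, 201, 278 and 156 CPM in light zone (0.71 on the log2 scale), and Grn, at 33.4, 47.2, 0 and 78.4 CPM against 62.4, 116, 197 and 186 CPM (1.44, SE 0.34, edgeR adjusted p = 0.0262). Ctsb did not overlap between the zones and Grn did. Without dark zone replicate 3 the count was again 2; it was 0 without light zone replicate 3, without dark zone replicate 1 or without dark zone replicate 2, 1 without light zone replicate 1, light zone replicate 2 or dark zone replicate 4, and 5 without light zone replicate 4. In aPIK3CD mice 7 of 47 rose in the light zone (Grn 1.81, Hexa 0.996, Ctsb 0.86, Npc2 0.84, Ctsc 0.74, Ctss 0.40 and Ctsh 0.38 on the log2 scale), where 3.13% of all genes tested rose and 2.91% fell. That count was 3 without light zone replicate 3. Summed over the monocyte, macrophage and neutrophil markers, levels did not overlap between the zones in WT (0 to 41.2 CPM in dark zone and 90.5 to 327.6 CPM in light zone) and overlapped in aPIK3CD (27.7 to 109.1 CPM and 28.7 to 445.2 CPM); their part in the result was not tested.

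The series asks what activated PIK3CD signalling changes in each population. In plasma cells, 7 of 47 members tested were higher in aPIK3CD than in WT and 0 were lower, where 1.98% of all genes tested rose and 1.22% fell. The members' median log2 fold change was 0.27 and that of all genes -0.003. Of the 47, 36 had a positive fold change and 20 an unadjusted p below 0.05, where 49.7% and 23.3% of all genes tested did. In 15 members all aPIK3CD libraries lay above all WT libraries, and in 0 below, where 8.6% of all genes tested lay above and 6.05% below. Since the members were chosen with earlier results of these data known, these counts describe them and are no independent test. Tfeb, Manba and Galc were not tested.

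The 2 pump genes were Atp6ap1 and Atp6v1h. Atp6ap1 (ENSMUSG00000019087) measured 356, 275, 373 and 308 CPM in WT replicates 1 to 4 and 532, 513, 549.7 and 507 CPM in aPIK3CD. Atp6v1h (ENSMUSG00000033793), the V1 subunit that couples ATP hydrolysis to pumping, measured 199, 148, 176 and 147 CPM in WT and 282, 261, 271 and 293 CPM in aPIK3CD. Neither gene overlapped between genotypes (log2 fold changes 0.65, SE 0.13, edgeR adjusted p = 0.0234, and 0.69, SE 0.13, edgeR adjusted p = 0.0239). The class median was 0.17, and Atp6v0b, high in plasma cells of both genotypes, had 492 ± 20.5 CPM in WT and 476 ± 28.7 CPM in aPIK3CD (SD, n = 4).

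The 3 proteases were Ctsb, Ctsc and Lgmn. Ctsb (ENSMUSG00000021939) measured 1457, 1284, 1407 and 1596 CPM in WT and 1712, 2110.2, 1926 and 1969.7 CPM in aPIK3CD (0.40, SE 0.10, edgeR adjusted p = 0.0447). Ctsc (ENSMUSG00000030560) measured 424, 307, 399 and 349.6 CPM against 487, 640.5, 604 and 553 CPM (0.60, SE 0.14, edgeR adjusted p = 0.0387). Lgmn (ENSMUSG00000021190), the asparaginyl endopeptidase that processes other cathepsins, measured 163, 161, 114 and 221 CPM against 238, 269, 365 and 335 CPM (0.84, SE 0.21, edgeR adjusted p = 0.0489). In all 3 every aPIK3CD library was above every WT library. Ctss, the highest protease per kilobase, did not pass the test, with means of 2038 CPM in aPIK3CD and 2273 CPM in WT (-0.19, SE 0.10, edgeR adjusted p = 0.286).

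Glb1 (ENSMUSG00000045594), beta-galactosidase, was the glycosidase that rose, from 174, 166, 177 and 209 CPM in WT to 325, 329.8, 434 and 342 CPM in aPIK3CD. Its groups did not overlap (0.95, SE 0.15, edgeR adjusted p = 0.0172). Grn (ENSMUSG00000034708) measured 460.0, 494, 513 and 435 CPM in WT and 773, 789, 817 and 844 CPM in aPIK3CD, the smallest adjusted p of the members (0.73, SE 0.10, edgeR adjusted p = 0.00937). Its spread within each genotype was small beside the gap between them. Naglu had a larger fold change than any of these, from 15.9, 23.4, 15.3 and 25.3 CPM to 42.0, 28.6, 76.7 and 39.1 CPM without overlap, but rested on 7 to 41 counts and did not pass the test (1.20, SE 0.38, edgeR adjusted p = 0.0919); it was singled out after its values were seen.

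No lipid enzyme and no membrane protein passed the test, though the fold changes of all 7 tested in each class were above 0 (Npc2 by less than 0.01), with medians of 0.35 and 0.27. The unadjusted p was below 0.05 in 2 and 4 of them. Over all libraries the summed level of the 50 genes in plasma cells was 14627 ± 777 CPM in WT and 17847 ± 496 CPM in aPIK3CD (SD, n = 4). Summed myeloid markers overlapped between the genotypes (49.4 to 410.9 CPM in WT and 26.2 to 588.5 CPM in aPIK3CD); their part in the difference was not tested. Plasma cell markers summed to 13021 ± 1304 CPM in WT and 11567 ± 694 CPM in aPIK3CD.

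**Figure D5:**
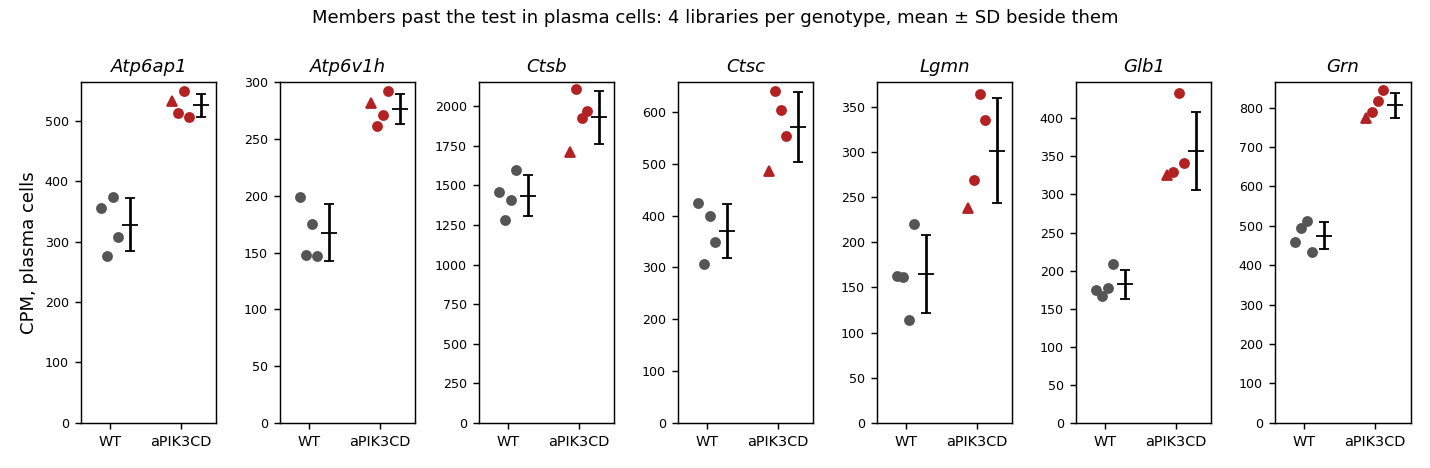
CPM (y axis, from 0) of the 7 members past the test in plasma cells, 4 libraries each of WT and aPIK3CD (x axis) with mean and SD beside them; the triangle is aPIK3CD replicate 1, whose genotype field reads WT. In each gene all aPIK3CD points, the triangle included, lie above all WT points.

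These calls depended on which libraries and labels entered. With aPIK3CD replicate 1 counted as WT, 0 of the 7 passed, and leaving that library out gave 6 members. The count was 2 without aPIK3CD replicate 2, 1 without replicate 3 and 2 without replicate 4, and 3, 1, 5 and 7 without WT replicates 1 to 4. Grn passed in 8 of 8 such fits, Glb1 lost the call in 2, Atp6v1h in 4, Atp6ap1 in 5, Ctsb and Ctsc in 6 and Lgmn in 7. With log2 total count as a covariate, 0 passed, and total counts were higher in the aPIK3CD libraries (652722 to 788999 against 473149 to 704361). The fold changes kept their direction in every alternative run.

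In the other populations 0 members passed the test between genotypes. In naive B cells 0 of 49 passed, where 0% of all genes tested did, and 3 had an unadjusted p below 0.05 (3.06% of all genes). In the dark zone 0 of 44 passed, where 0.021% of all genes did, and 5 had an unadjusted p below 0.05 (7.5% of all genes); without the shallow WT replicate 3, 0 of 46 passed. In the light zone 0 of 47 passed, where 0% of all genes did, and 4 had an unadjusted p below 0.05 (6.63% of all genes). DESeq2 and limma voom also gave 0 members in these 3 populations. Median log2 fold changes of the members were 0.02 in naive cells, 0.12 in dark zone and 0.11 in light zone.

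Whether the genotype effect differs among the populations was tested directly, in 1 fit over all 32 libraries. For 0 of 50 members did the interaction pass, where 0.0256% of all genes tested did; 0 also passed with DESeq2 and limma voom. The 3 members with the smallest p had edgeR adjusted p-values of 0.521 for Atp6ap1, 0.572 for Ctsc and 0.595 for Lgmn. Over the alternatives their adjusted p ranged from 0.120 to 0.909, from 0.216 to 0.858 and from 0.308 to 0.970. A rise in plasma cells that differs from the other populations is not shown for any member. In aPIK3CD against WT, Atp6ap1 had log2 fold changes of 0.14 in naive cells, -0.01 in dark zone and 0.14 in light zone.

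Members with and without the heptamer in the promoter were set side by side, with no test of the difference. In plasma cells the median log2 fold change between genotypes was 0.26 over 14 genes with TCACGTG, of which 2 rose, and 0.26 over 25 genes without it, of which 3 rose. Ctsb and Atp6v1h, which rose but had no promoter window, are in neither set. Against naive cells in WT the medians were 0.64 (6 of 14 rose, 1 fell) and 0.996 (14 of 27 rose, 4 fell). In the dark zone they were -1.32 and -1.15, and in the light zone -0.88 and -0.96.

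Other genes of the pathway, on 5 lists, were read beside the members and against the 25.4% of all genes tested that rose and the 24.2% that fell in WT plasma cells over naive cells. In WT plasma cells against naive cells, 4 of 6 other pump subunits tested rose (Atp6v0a1 2.02, Atp6v1f 1.53, Atp6v0e 1.34 and Atp6v1g1 1.14 on the log2 scale) and 0 fell. Of 26 other hydrolases and lysosomal proteins 10 rose and 4 fell. Laptm4a, a lysosomal membrane protein, had 557 ± 32.4 CPM in plasma cells and 59.1 ± 3.32 CPM in naive cells (3.28, edgeR adjusted p = 4.20e-10), and Aga, which cleaves the sugar link of glycoproteins, had 359 ± 29.1 against 56.3 ± 10.8 CPM (2.72, edgeR adjusted p = 1.40e-08).

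Of 16 genes that sort enzymes to the lysosome, 3 rose and 5 fell, shares near those of all genes. Gga2, an adaptor for mannose 6-phosphate receptors, fell from 439.9 ± 42.7 to 46.3 ± 6.30 CPM (-3.20, edgeR adjusted p = 2.70e-09), and Ap1m1, a subunit of the adaptor complex that works with it, from 412 ± 27.1 to 90.4 ± 31.8 CPM (-2.12, edgeR adjusted p = 1.04e-06). On the list of TFEB relatives and mTORC1 sensing at the lysosome, 7 of 17 rose (Fnip1, Lamtor1, Lamtor2, Lamtor4, Lamtor5, Mtor and Rheb) and 2 fell (Flcn and Slc38a9). Cst3, cystatin C, an inhibitor of the cathepsins, rose from 191 ± 41.1 to 1196 ± 162 CPM (2.69, edgeR adjusted p = 9.56e-09), 1 of 3 inhibitors that rose of 6 tested.

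Between genotypes in plasma cells, 4 of 24 other hydrolases rose in aPIK3CD and 0 fell, where 1.98% of all genes tested rose and 1.22% fell. Among them were Ctso, a cathepsin (809.8 ± 53.5 against 489 ± 86.1 CPM, log2 fold change 0.70, edgeR adjusted p = 0.0231), Gm2a, the activator for ganglioside breakdown (0.77, edgeR adjusted p = 0.0255), and Hgsnat, a heparan acetyltransferase (0.86, edgeR adjusted p = 0.0357). Fnip1, the partner of folliculin in mTORC1 sensing, fell from 89.6 ± 21.2 CPM in WT to 42.4 ± 6.51 CPM in aPIK3CD (-1.09, SE 0.25, edgeR adjusted p = 0.0371), the only call of 16 genes tested on its list. Of the 6 pump subunits, 15 sorting genes and 5 inhibitors tested, 0 passed (0, 6 and 2 at an unadjusted p below 0.05). With aPIK3CD replicate 1 counted as WT, or with log2 total count as a covariate, 0 of these 5 calls on related genes passed. With a library left out, Ctso and Gm2a lost the call in 4 of 8 fits, Hgsnat in 6 and Fnip1 in 7, and the directions of all 5 held. From 0 to 5 of them passed, with 0 without aPIK3CD replicate 3, WT replicate 1 or WT replicate 2, 1 without aPIK3CD replicate 2 or 4, 3 without aPIK3CD replicate 1 or WT replicate 4, and 5 without WT replicate 3.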

How the data were processed

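The authors deposited raw counts in 1 table, with a column for each of 32 libraries; the submitters' processing notes name STAR 2.4.2a, HTSeq and Picard without roles, and the sources used here do not give the genome build. Libraries were made from 500 sorted cells with SMART-Seq v4, per the labels' protocols.

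Each comparison was fitted on its own 2 groups of 4 with edgeR 4.0.16 (R 4.3.3): TMM scaling, filterByExpr (minimum count 10, minimum total 15), quasi-likelihood F test, and Benjamini-Hochberg adjustment over all genes tested, with a threshold of 0.05. SE is the log2 fold change divided by the root of F. The interaction used 1 fit over all libraries. CPM used 1 TMM scaling of all 32 libraries. Exonic lengths and overlaps came from GENCODE M21, which held 53360 of the 53465 gene IDs. The test was run first on simulated data.

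The members and lists were chosen with earlier results of these data known. Named were members called between genotypes, the 2 called members per class with the largest change in WT plasma cells against naive cells (no overlap, mean of at least 10 CPM in the higher group), the member per class with the most counts per exonic kilobase, Tfeb, the 3 smallest interaction p-values, and up to 3 genes per direction of each related list. Some genes that this rule names are not reported here. Alternatives were DESeq2 1.42.0, limma voom 3.58.1, other scalings, no filter, thinned counts, receptor genes (immunoglobulin, T cell) left out, a single fit, a replicate block, a covariate of log2 total count, aPIK3CD replicate 1 as WT, and each library left out; their use on the related genes was added after the data were seen.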

Additional observations from a re-analysis of the deposited data

Results flagged for a closer look

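In 152 groups of 4 libraries of the named genes, 7 had 1 library far from the other 3 by Dixon's gap ratio; chance flags about 5 percent of groups. Atp6v0c was 31.8 CPM in aPIK3CD naive replicate 2 and 16.9 to 18.2 CPM in the others. Ctss was 515.0 CPM in aPIK3CD light zone replicate 1, against 461 to 469.6 CPM. Glb1 was 8.18 CPM in aPIK3CD dark zone replicate 2, against 38.9 to 44.4 CPM, and 433.8 CPM in aPIK3CD plasma cell replicate 3, against 325 to 342 CPM. Gusb was 34.0 CPM in WT dark zone replicate 3, a library of 25797 counts in which this is 1 count, against 95.9 to 100.5 CPM. Lgmn was 130.9 CPM in aPIK3CD light zone replicate 4, against 172.9 to 173.5 CPM. Ppt1 was 312.0 CPM in aPIK3CD naive replicate 4, against 274.8 to 276.1 CPM.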

How the results depend on the processing

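Of 213 alternative values of counts, 190 stayed within 1.5 times the main count and 23 moved; of 402 alternative values of single members, 343 kept direction and call, 58 lost the call, 1 gained it and 0 reversed. Members called in plasma cells between genotypes numbered 7, and 11 with DESeq2, 13 without the filter, 13 without immunoglobulin and T cell receptor genes, 3 in the single fit, 0 with aPIK3CD replicate 1 as WT, 0 with the log2 total as covariate, and 1 to 7 with a library left out. In the light zone between genotypes 2 were called without the filter, against 0. Light against dark zone in WT gave 2, 0 with DESeq2 and 0 to 5 with a library left out; in aPIK3CD it gave 7, and 3 to 6 with a library left out. With the replicate number as a block, plasma cells between genotypes gave 2 members and light against dark zone in WT gave 1. Same-numbered libraries were not taken as pairs: in 0 of 12 comparisons did all 4 pairs correlate above 0.1 (-0.0714 to 0.244). Comparisons and blocks between genotypes join separate mice and cannot show such pairing. The highest correlations, 0.244 and 0.225, were in replicates 1 and 2 of light against dark zone in aPIK3CD. Over all genes, calls in plasma cells between genotypes were 249, and 694 without the filter, 626 without receptor genes, 492 with DESeq2, 148 in the single fit, 77 with the block, 2 with replicate 1 as WT, 4 with the covariate and 12 to 243 with a library left out. The dark zone gave 2, 80 without the filter and 53 with the block; the light zone 0, 7 with DESeq2 and 66 without the filter; naive cells 0, and 8 in the single fit. Light against dark zone gave 246 in WT, with 118 by DESeq2, 480 by limma voom, 559 without the filter and 103 to 412 with a library left out, and 592 in aPIK3CD, with 961 under the block and 344 to 629 with a library left out. The interaction gave 3, with 338 without the filter, 40 by DESeq2, 7 by limma voom and 0 with replicate 1 as WT. The cause of these differences was not tested. On library totals, all genes split into 1754 higher and 4059 lower in WT plasma cells against naive cells (2479 and 2363 in the main fit), and into 1819 and 4207 in aPIK3CD. With DESeq2 size factors the WT dark zone split into 1603 and 2722 (1990 and 2168 in the main fit). Low counts limit several members, among them Galc and Arsb, whose highest counts in any library were 20 and 37.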
